A study of Mus musculus with 30 samples.

Results

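The genes described here are 9 transcripts of inflammation and antiviral defence in mouse fetal liver and lung after maternal dosing with perfluorooctane sulfonate (PFOS), a fluorinated surfactant that persists in the body. They are the chemokines Cxcl10, Cxcl9, Cxcl1 and Ccl2, the cytokine Tnf, and the interferon response genes Irf7, Ifit1, Ifit3 and Isg15. The question was whether the higher liver Cxcl10 came with an interferon response. The genes were found by symbol in the array's platform annotation, and of several probe sets the one with the highest mean over all 30 arrays was taken. Of the 9 genes, 8 have a probe set with that symbol alone, out of 18193 genes in all. The only probe set of Isg15 is also annotated to Gm9706, so its values are those of a shared probe set and are not attributed to Isg15. Cxcl10 was selected on its liver levels with and without PFOS. Its liver differences between doses, and their contrast with lung, are therefore descriptions with no test.

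Type I interferons signal through their receptor to transcription factors that bind the interferon-stimulated response element and switch on a broad set of antiviral genes. Interferon gamma acts at gamma-activated sites and is a strong inducer of Cxcl9. Cxcl10 responds to both interferon types and also to NF-kappaB, which further drives Cxcl1, Ccl2 and Tnf. In liver, CXCL10 is made by hepatocytes, endothelial cells and macrophages, and it draws T cells and natural killer cells that carry the receptor CXCR3.

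Pregnant CD-1 mice, an outbred stock, received PFOS (potassium salt) by gavage in a vehicle of 0.5% Tween 20 daily on gestation days 1 to 17, and fetal tissues were taken on day 18. The groups were fetal liver and fetal lung at 0, 5 and 10 mg/kg/day, written 0, 5 and 10 mg below, with 5 litters per tissue and dose. Each array held RNA pooled from 3 fetuses of 1 litter, so the litter is the replicate and the spread among fetuses is averaged out. The labels do not say that a number marks the same litter in both tissues.

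Levels are log2 values from RMA, on which changes of dim probe sets are compressed, and the array means were all close to 5.1. A gene counted as measurable, and was tested, if at least 5 of a tissue's 15 arrays had it brighter than the 40th percentile of that array, a level between 4.16 and 4.23. The tissues matched their labels, with an Alb level of 13.82 to 13.89 in all livers. The lung epithelial marker mean was 10.32 to 10.74 in lungs, over the 7 markers tested there. In livers it was at most 6.02, over the 3 markers tested there, so the gene sets differ. The lungs also held hepatocyte transcripts, with a marker mean of 7.49 to 9.72 against 12.29 to 12.59 in livers. Control livers 2, 3 and 5 stood apart in Cym, a stomach protease, at 11.27, 9.50 and 8.20, where all other livers were between 4.23 and 5.60. Calls lost without these 3 livers are named beside the results.

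The RefSeq promoter table, of build GRCm38.p6, holds 8 of the 9 genes. The 250 bases before the start of 3 of them are printed because they carry the sequence through which type I interferons act. Capitals mark each match to GAAA, any 2 bases, GAAA, a short form of the interferon-stimulated response element searched on both strands. A match on the opposite strand reads TTTC, any 2 bases, TTTC. Positions are counted back from the gene's start.
Cxcl10 (chr5:92348890-92349139, minus strand): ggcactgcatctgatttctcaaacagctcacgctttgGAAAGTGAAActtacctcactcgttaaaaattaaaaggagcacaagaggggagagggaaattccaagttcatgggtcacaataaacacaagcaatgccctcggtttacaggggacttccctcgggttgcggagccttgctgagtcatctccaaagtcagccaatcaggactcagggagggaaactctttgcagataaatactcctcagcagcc
Ifit1 (chr19:34640639-34640888, plus strand): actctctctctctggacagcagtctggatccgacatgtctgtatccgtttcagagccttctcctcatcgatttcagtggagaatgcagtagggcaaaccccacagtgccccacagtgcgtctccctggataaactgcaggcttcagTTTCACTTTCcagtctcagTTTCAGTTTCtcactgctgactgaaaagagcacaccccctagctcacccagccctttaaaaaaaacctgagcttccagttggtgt
Ifit3 (chr19:34583279-34583528, plus strand): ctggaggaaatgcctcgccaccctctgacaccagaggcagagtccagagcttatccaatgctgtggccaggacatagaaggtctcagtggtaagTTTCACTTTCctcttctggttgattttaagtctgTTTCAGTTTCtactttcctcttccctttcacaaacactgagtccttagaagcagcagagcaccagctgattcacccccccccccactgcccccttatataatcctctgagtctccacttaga
Cxcl10 held 1 match, from -213 to -204. Ifit1 held 2, from -104 to -95 and from -85 to -76, and Ifit3 held 2, from -156 to -147 and from -122 to -113. Isg15 held 3 overlapping matches, and no match lay in this window of Cxcl9, Cxcl1, Tnf or Irf7. Of all 32851 promoters in the table, 2.98% held a match. The letters GGGA, any 4 bases, CC, a short form of the NF-kappaB site, were found in Cxcl10 from -159 to -150 and, on both strands, from -103 to -94. They were also found in Cxcl9 and Cxcl1, and in 17.6% of all promoters. The gamma-activated site, TTCNNNGAA, was in this window of none of the 8 genes and of 7.02% of all promoters. A match describes the letters and shows no binding.

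Cxcl10 was higher in every exposed fetal liver than in any unexposed one, and was dim in lung at every dose. In livers of litters 1 to 5 at 0 mg its level was 5.24, 5.11, 5.49, 4.74 and 5.54. At 5 mg it was 7.22, 8.11, 7.00, 6.47 and 6.58, and at 10 mg it was 8.73, 7.16, 7.41, 8.22 and 7.00. The lowest exposed liver lay above the highest unexposed one, while the exposed doses overlapped. The mean was 7.08 ± 0.66 at 5 mg against 5.22 ± 0.32 at 0 mg (SD, n = 5 each), a change of 1.85 or 3.61-fold. For the 10 mg livers it was 7.70 ± 0.74 (SD, n = 5), a change of 2.48 or 5.58-fold. Such complete separation of 5 litters above 5 was seen in 4.84% of all genes tested in liver at 5 mg and in 4.63% at 10 mg. Between the exposed doses the difference of 0.63 did not pass (SE 0.33, limma adjusted p = 0.662), and 0.00754% of all genes passed in that contrast.

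In lung, Cxcl10 was below the measurable level at all doses. It ran from 3.16 to 3.49 at 0 mg, from 3.13 to 3.32 at 5 mg and from 3.26 to 4.05 at 10 mg. The changes were -0.11 at 5 mg and 0.26 at 10 mg, and exposed and unexposed litters overlapped at both. The liver change exceeded the lung change by 1.97 and 2.22, values that belong to the pattern for which the gene was picked. The level of Cxcl10 in lung had a Pearson correlation of -0.25 with that of Alb over the 15 lung arrays, which share their dose groups.

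**Figure D1:**
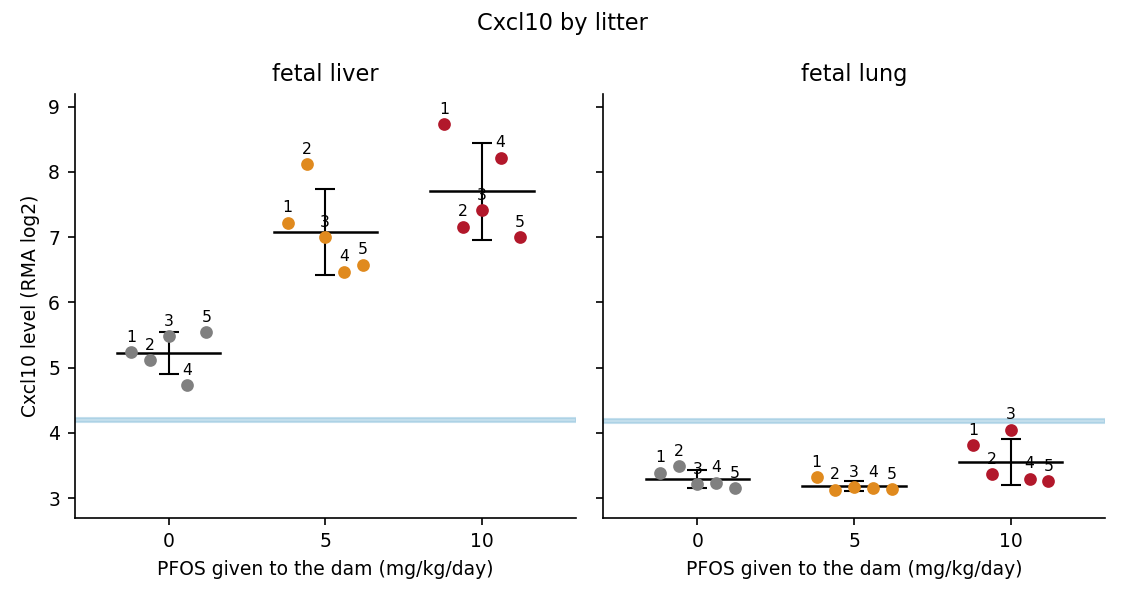
Cxcl10 level (RMA log2) in fetal liver and fetal lung by PFOS dose in mg/kg/day. Each point is 1 litter with its number, bars are the mean and SD of 5 litters, and the blue band is the range of the 40th percentile of all probe sets over the arrays of that tissue. All 10 exposed livers lie between 6.47 and 8.73, above all 5 unexposed livers, and all 15 lungs lie below the band.

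Cxcl9, a chemokine of the same receptor, was below the measurable level in both tissues. Its liver level was 3.90, 3.98, 3.37, 3.59 and 3.76 in litters 1 to 5 at 0 mg. It was 3.85, 4.75, 4.04, 3.63 and 4.20 at 5 mg and 4.89, 3.64, 3.73, 4.70 and 3.74 at 10 mg. Of the 10 exposed livers, 5 lay within the unexposed range and 5 above it. The 3 brightest, litter 2 at 5 mg and litters 1 and 4 at 10 mg, lay above the 40th percentile range of 4.16 to 4.23. They were also the 3 livers highest in Cxcl10. The mean changes were 0.37 and 0.42 at 5 and 10 mg, and those of a second, dimmer Cxcl9 probe set were -0.03 and 0.15. Cxcl11, another ligand of CXCR3, averaged 3.04, 3.06 and 3.35 in livers at 0, 5 and 10 mg, and Cxcr3 averaged 3.86, 3.77 and 3.85, all below the measurable level. Cxcl11 and Cxcr3 were chosen after their values were seen.

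Cxcl1, Ccl2 and Tnf, which are tied to NF-kappaB and to the recruitment of neutrophils and monocytes, gave no call in either tissue. In liver Cxcl1 ran from 6.35 to 6.78 at 0 mg, from 6.29 to 6.68 at 5 mg and from 6.30 to 6.60 at 10 mg, so the doses overlapped. Its changes were -0.08 and -0.09 at 5 and 10 mg (SE 0.09 each, limma adjusted p = 0.712 and 0.625). The other Cxcl1 probe sets had liver changes between -0.41 and -0.05. Tnf ran from 4.37 to 4.88 over all livers, with changes of 0.04 and -0.06 (SE 0.09 each, limma adjusted p = 0.834 and 0.757). Ccl2, the main attractant of monocytes, averaged 3.81, 3.76 and 3.72 in livers at 0, 5 and 10 mg and 3.29, 3.26 and 3.32 in lungs, below the measurable level. In lung Cxcl1 changes were -0.01 and -0.12 (limma adjusted p = 0.999 and 0.789), and those of Tnf were 0.20 and 0.08 (limma adjusted p = 0.998 and 0.900). The other Cxcl1 probe sets had lung changes of both signs, between -0.19 and 0.15. The dimmer of them averaged 3.01 at 5 mg and 3.34 at 10 mg in lung, below the measurable level.

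Of the 5 genes other than Cxcl10 that could be tested in liver, none passed at 5 mg, where 6.07% of all genes passed, and 1 passed at 10 mg, where 10.5% did. Before adjustment 1 of the 5, Ifit1, had a p under 0.05 at each dose, as did 19.8% of all genes tested in liver at 5 mg and 24.0% at 10 mg. The 1 call was Ifit1, an RNA-binding antiviral effector strongly induced by type I interferon. Its liver level was 4.58, 4.77, 4.86, 4.70 and 5.18 in litters 1 to 5 at 0 mg. It was 5.70, 6.09, 5.43, 4.93 and 5.67 at 5 mg and 6.25, 4.93, 5.31, 7.08 and 5.60 at 10 mg. At each exposed dose 4 litters lay above every unexposed litter, and 1 litter, at 4.93, lay within their range. The change was 0.75 at 5 mg (SE 0.31, limma adjusted p = 0.186) and 1.01 at 10 mg (SE 0.31, limma adjusted p = 0.0488), with 5 of 5 litters above the control mean at both doses. The call at 10 mg was marginal. It was lost on leaving out any 1 control litter or exposed litter 1, 4 or 5 (limma adjusted p between 0.0538 and 0.105), and kept without exposed litter 2 (0.0137) or 3 (0.0450). Without control livers 2, 3 and 5 together the change was 1.19 (limma adjusted p = 0.186), and with the litter number as a replicate block the adjusted p of limma was 0.0940.

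Irf7 and Ifit3 did not pass in liver. Irf7, a transcription factor that interferon induces and that amplifies interferon production, was 5.72, 6.05, 5.87, 6.00 and 5.87 in livers at 0 mg. It was 6.45, 6.54, 5.90, 5.81 and 5.99 at 5 mg and 6.61, 5.74, 5.96, 7.03 and 6.27 at 10 mg. Of the exposed livers, 3 at 5 mg and 2 at 10 mg lay within the unexposed range. The changes of Irf7 were 0.23 and 0.42 (SE 0.20 each, limma adjusted p = 0.588 and 0.223). Ifit3, a related antiviral gene on the same chromosome, was 5.09, 5.27, 5.20, 5.22 and 5.50 at 0 mg. It was 5.29, 5.73, 5.63, 5.21 and 5.73 at 5 mg and 5.93, 4.88, 5.33, 6.60 and 5.48 at 10 mg. The groups overlapped at both doses, with the lowest and highest of all 15 livers both at 10 mg. Its changes were 0.26 and 0.38 (SE 0.23 each, limma adjusted p = 0.599 and 0.340). The shared probe set of Isg15, a ubiquitin-like modifier, and Gm9706 averaged 7.33 ± 0.35 at 0 mg, 7.79 ± 0.26 at 5 mg and 7.74 ± 0.92 at 10 mg (SD, n = 5 each), with the lowest and highest livers, at 6.37 and 8.91, again both at 10 mg.

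**Figure D2:**
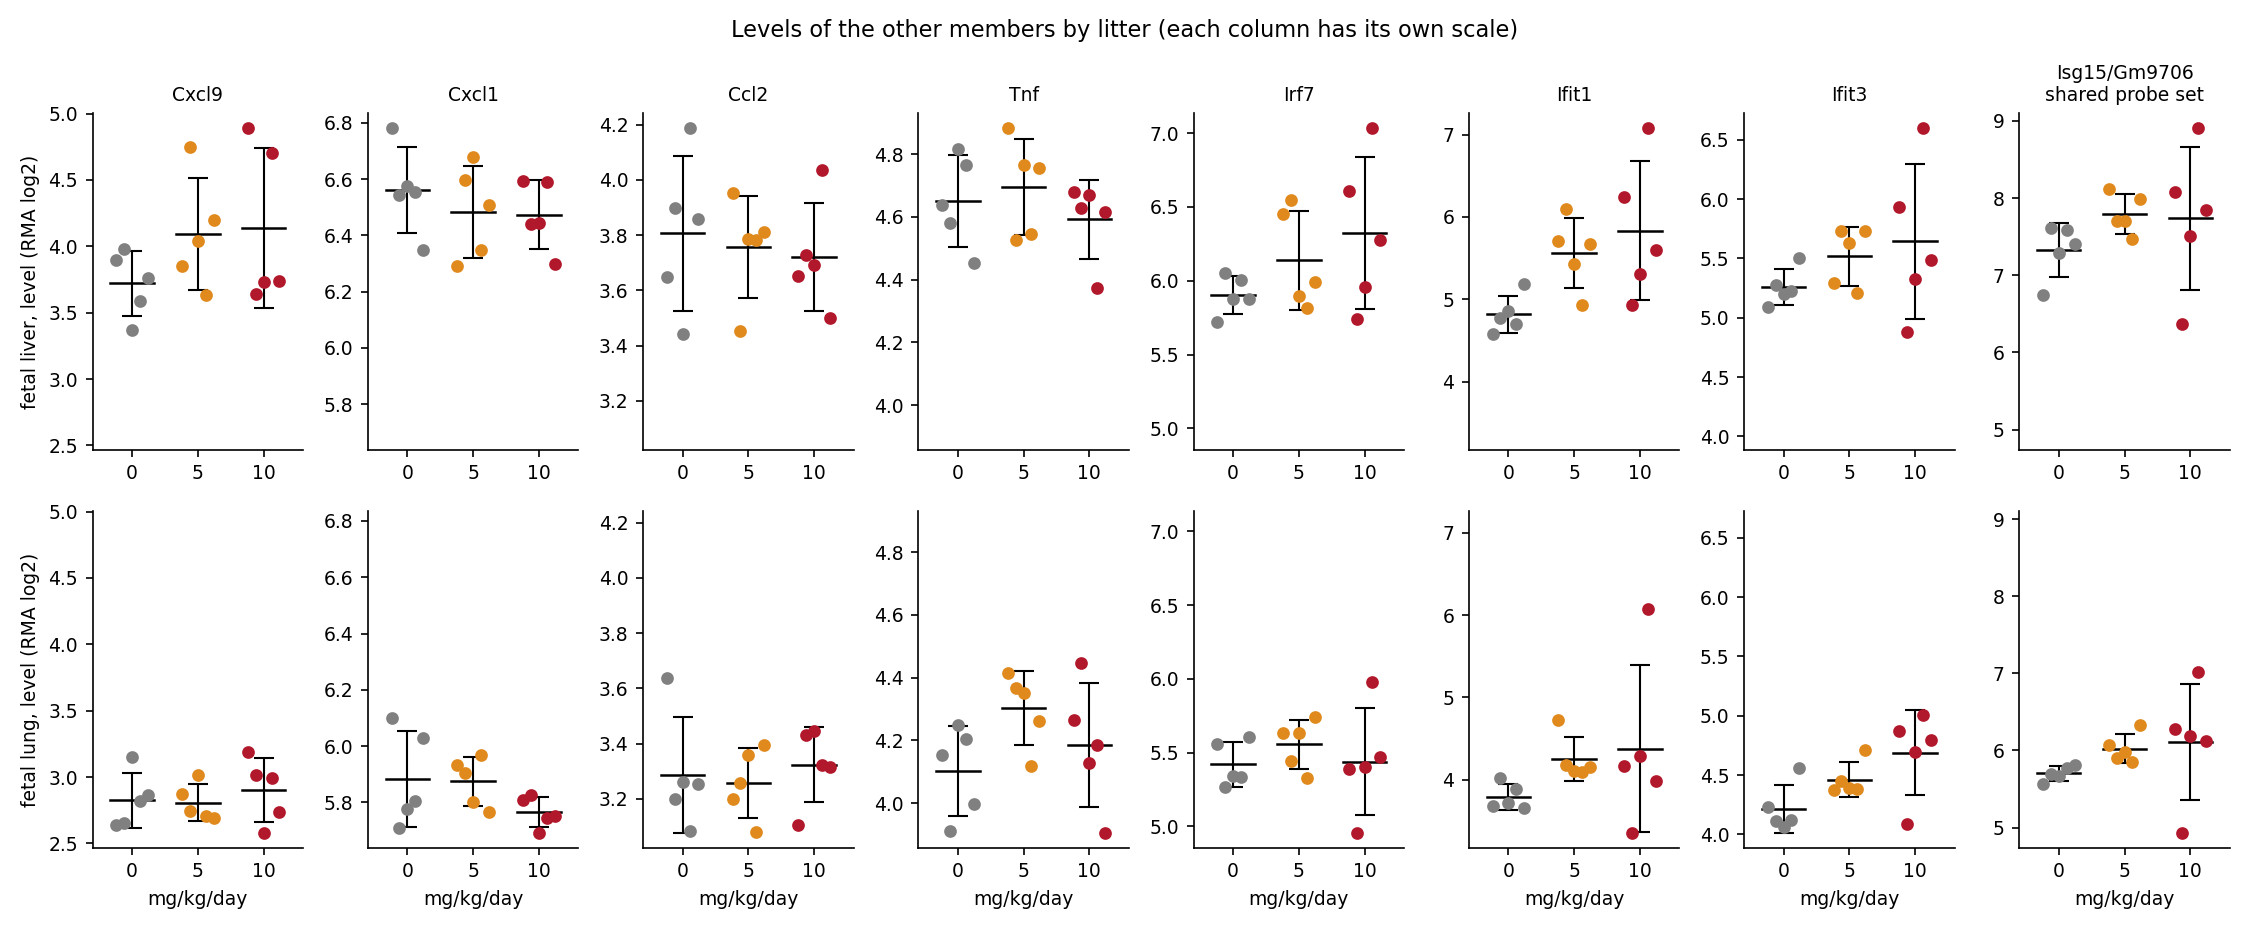
Levels (RMA log2) of the 7 other genes with a probe set of their own and of the shared Isg15 and Gm9706 probe set, in fetal liver above and fetal lung below, by PFOS dose in mg/kg/day. Points are litters in numerical order, and bars are the mean and SD of 5 litters. Ifit1, Ifit3, Irf7 and the shared probe set spread most at 10 mg/kg/day in both tissues, as Ifit1 in liver from 4.93 to 7.08.

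The interferon response genes were also followed in lung, where Cxcl10 was dim. Ifit1 was 3.68, 4.02, 3.72, 3.89 and 3.66 in lungs of litters 1 to 5 at 0 mg. It was 4.72, 4.18, 4.11, 4.10 and 4.16 at 5 mg and 4.17, 3.36, 4.29, 6.07 and 3.99 at 10 mg. All 5 litters at 5 mg lay above all unexposed ones, as did 0.551% of all genes tested in that comparison, but Ifit1 itself was too dim in lung for a test. The shared probe set of Isg15 and Gm9706 averaged 5.70 ± 0.10, 6.02 ± 0.19 and 6.11 ± 0.75 in lungs at 0, 5 and 10 mg (SD, n = 5 each). Its 5 litters at 5 mg also lay above all unexposed ones, and it was not tested. Ifit3 had lung changes of 0.24 and 0.47 (SE 0.14 each, limma adjusted p = 0.998 and 0.512) and Irf7 of 0.14 and 0.02 (SE 0.14 each, limma adjusted p = 0.998 and 0.987). Of the 4 genes tested in lung, Cxcl1, Tnf, Irf7 and Ifit3, none passed, against 0.0155% of all genes at 5 mg and 0.0543% at 10 mg. Before adjustment 0 had a p under 0.05 at 5 mg and 1, Ifit3, at 10 mg, against 4.62% and 6.91% of all genes tested in lung.

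The difference between the tissues was tested for the genes other than Cxcl10 measurable in either tissue, Irf7, Ifit3, Ifit1, Cxcl1 and Tnf. None passed at either dose. The liver change minus the lung change at 10 mg was 0.40 for Irf7 (SE 0.26, limma adjusted p = 0.494) and -0.09 for Ifit3 (SE 0.29, limma adjusted p = 0.935). The same difference at 5 mg was 0.10 and 0.01 (limma adjusted p = 0.945 and 0.994). Among all genes, 2.06% passed at 5 mg and 3.89% at 10 mg in these contrasts. This fit takes the arrays of both tissues as independent. With liver and lung arrays of 1 dose and number as a random replicate block, an alternative chosen after seeing the data, at a correlation of 0.0929 estimated over all genes, the adjusted p of limma at 10 mg was 0.418 for Irf7 and 0.917 for Ifit3. For Ifit1, too dim in lung to be tested there, the difference was 0.29 and 0.43 at 5 and 10 mg (SE 0.49 each, limma adjusted p = 0.900 and 0.751). With the random replicate block the adjusted p of limma was 0.863 and 0.695. For Cxcl1 and Tnf, without the block, the limma adjusted p lay between 0.676 and 0.943 over both doses.

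At 10 mg the interferon response genes differed widely between litters, and the same litter numbers stood out in both tissues. Litter 4 had the highest level of Ifit1, Ifit3, Irf7 and the shared probe set in liver and in lung, and litter 2 had the lowest. Ifit1 in litter 4 was 7.08 in liver and 6.07 in lung, and in litter 2 it was 4.93 and 3.36. Liver litter 2 was thus the lowest of all 15 livers in Ifit3, at 4.88, while its Cxcl10 level of 7.16 was above every unexposed liver. Over the 15 pairs of liver and lung arrays of equal dose and number, the Pearson correlation of levels was 0.80 for Ifit1, 0.80 for Ifit3, 0.51 for Irf7 and 0.30 for Cxcl10, with the dose groups shared.

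A list of 44 further type I interferon-stimulated genes widened the view. In liver 42 of them were tested. At 5 mg, 3 rose and none fell, against 4.26% higher and 1.81% lower among all genes, and at 10 mg, 2 rose and none fell, against 5.3% and 5.22%. The counts are thus near the background. The list's median change was 0.10 and 0.15, against -0.01 and -0.02 over all genes tested. A change above 0 was found for 30 of the 42 at 5 mg and 33 at 10 mg (71.4% and 78.6%), against 46.0% and 43.5% of all genes. In lung none of 40 passed (3 at each dose had an unadjusted p under 0.05), with a median of 0.12 and 0.10, and 34 of 40 had a change above 0 at each dose, against 52.0% and 52.2% of all genes. The list's median therefore lay slightly above that of all genes in both tissues. Its genes varied together across litters at 10 mg, so they are not independent. Litter 4 of that dose was the highest for 39 of the 42 in liver and 32 of the 40 in lung. By the median over litters, the list mean at 10 mg was 6.61 against 6.57 at 0 mg in liver. In lung it was 6.59 against 6.49.

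The called genes of the list were Tor3a, Lgals3bp and Oasl1. Tor3a, an endoplasmic reticulum ATPase, was 4.63, 4.51, 4.51, 5.04 and 4.67 in livers at 0 mg, 5.71, 5.65, 5.76, 5.51 and 5.61 at 5 mg and 5.69, 5.81, 5.58, 6.21 and 5.83 at 10 mg. Every exposed liver was above every unexposed one, and Tor3a rose by 0.97 and 1.15 (SE 0.11 each, limma adjusted p = 5.79e-05 and 5.96e-06). Lgals3bp, a secreted galectin-binding glycoprotein, ran from 8.66 to 9.17 at 5 mg and from 8.74 to 9.26 at 10 mg, against 8.11 to 8.43 at 0 mg. It rose by 0.63 and 0.75 (SE 0.11 each, limma adjusted p = 0.00319 and 0.000399), though without control livers 2, 3 and 5 it did not pass at 5 mg (limma adjusted p = 0.0600). Oasl1, a relative of the oligoadenylate synthetases, rose by 0.35 at 5 mg (SE 0.08, limma adjusted p = 0.0186, and 0.0565 with the replicate block). At 10 mg its change was 0.25 (limma adjusted p = 0.0700, and as low as 0.0374 without 1 litter, that at 10 mg numbered 2).

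Most classical members of the list did not pass. Oasl2 had changes of 0.63 and 0.76 (SE 0.24 each, limma adjusted p = 0.152 and 0.0593), with levels from 4.52 to 6.33 at 10 mg. It passed at 10 mg without litter 2 of that dose (limma adjusted p = 0.0125). Usp18, which removes ISG15 from proteins, had a change of 0.15 at 10 mg (SE 0.24, limma adjusted p = 0.769). Rsad2, the antiviral enzyme viperin, had 0.19 at 10 mg (SE 0.12, limma adjusted p = 0.377), and its level in livers at 0 mg was already 10.58 on average. Ifit2 had 0.15 and Irf9, a transcription factor of type I interferon signalling, had 0.19 at 10 mg (limma adjusted p = 0.647 and 0.299). Mx1, at a mean of 3.15 in unexposed livers, was below the measurable level. Of the genes named here, Usp18, Rsad2, Ifit2 and Mx1 were chosen after their values were seen.

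**Figure D3:**
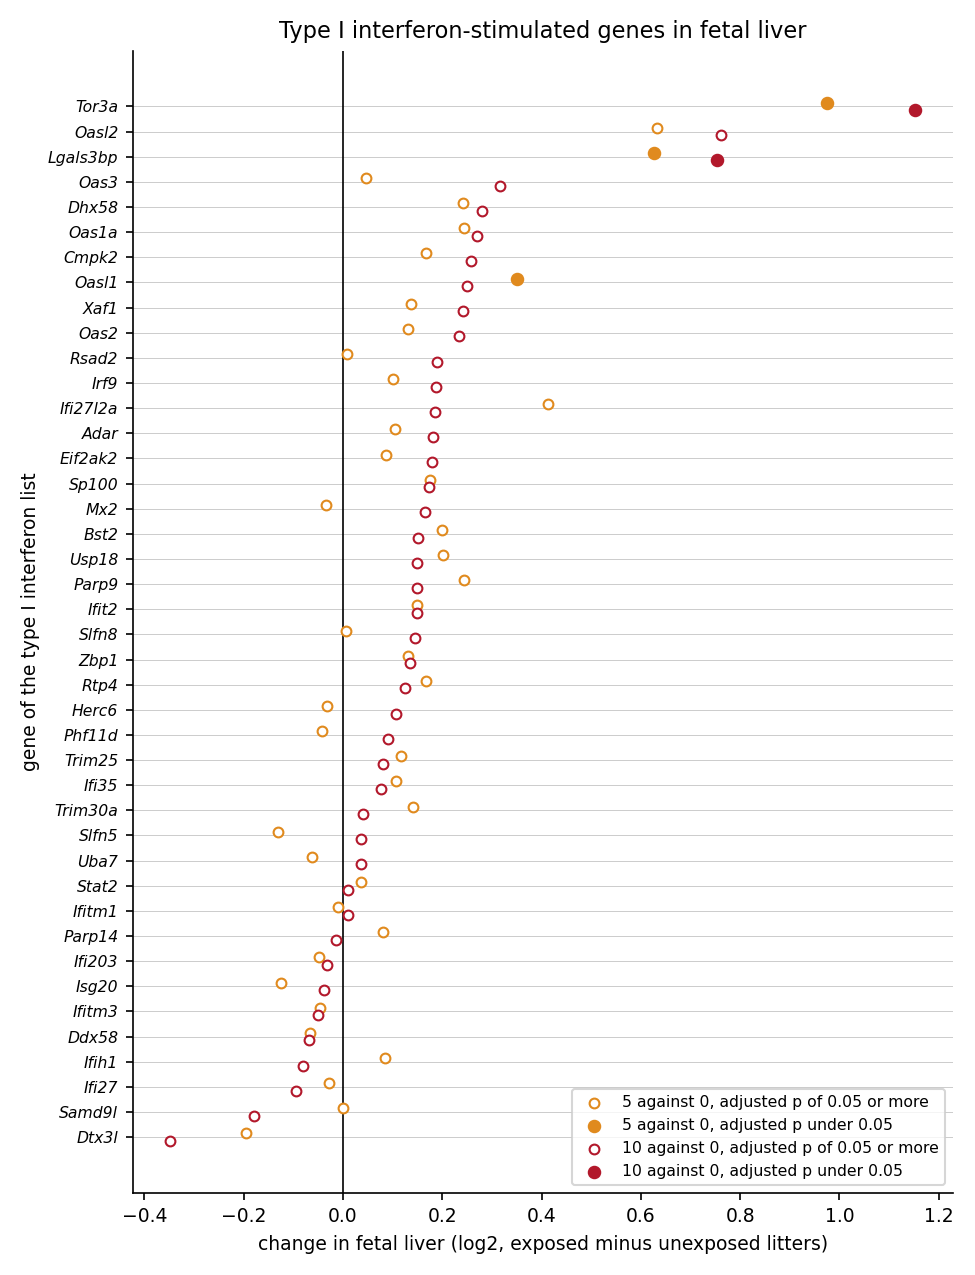
Change in fetal liver (log2, exposed minus unexposed litters) of 42 tested type I interferon-stimulated genes, ordered by the change at 10 mg/kg/day. Orange is 5 and red is 10 against 0 mg/kg/day, and filled points passed a limma adjusted p under 0.05. Tor3a and Lgals3bp have filled points at both doses and Oasl1 at 5 mg/kg/day, and the list's median change is 0.10 at 5 and 0.15 at 10 mg/kg/day.

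No gene of the interferon gamma lists was called higher, where 4.26% of all genes were at 5 mg and 5.3% at 10 mg. At 10 mg 5.22% of all genes were called lower. With lists this short, the counts are near the background. Of 14 tested interferon gamma-induced GTPases and transcription factors, none passed at 5 mg (2 with an unadjusted p under 0.05) and 1 fell at 10 mg. It was Ifi47, an interferon-inducible GTPase, with a fall by 0.37 (SE 0.11, limma adjusted p = 0.0396), a call lost in 7 of 10 fits without 1 litter (up to 0.0987) and without control livers 2, 3 and 5 (0.315). Over the list the median was -0.02 and -0.01. Irf1, a transcription factor that both interferon types induce, had a change of -0.08 at 10 mg (SE 0.08, limma adjusted p = 0.598). Of 14 genes of antigen presentation and the immunoproteasome, none passed at 5 mg (4 with an unadjusted p under 0.05), and 1 fell at 10 mg. It was the proteasome subunit Psmb10, which fell by 0.32 (SE 0.09, limma adjusted p = 0.0319), a call lost in 5 of 10 fits without 1 litter (up to 0.0839) and without those control livers (0.335). H2-K1, a class I histocompatibility heavy chain, had changes of 0.57 and 0.42 (SE 0.17 each, limma adjusted p = 0.0682 and 0.145). At 5 mg it passed in 1 of 10 fits without 1 litter, that without control litter 5 (limma adjusted p = 0.0237). In 12 other settings at 5 mg its change ran from 0.12 to 0.58 and never passed (limma adjusted p up to 0.804).

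None of 22 tested interferons, interferon receptors and nucleic acid sensors passed in liver at 5 or 10 mg, where 6.07% and 10.5% of all genes did. At each dose 3 of the 22 had an unadjusted p under 0.05. Ifnb1 averaged 3.46, 3.49 and 3.54 in livers at 0, 5 and 10 mg, and Ifng averaged 2.29, 2.19 and 2.11, below the measurable level. Ifna1 had a change of 0.12 at 10 mg (SE 0.13, limma adjusted p = 0.623). Jak2, a kinase of interferon gamma signalling, had a change of -0.15 at 10 mg (limma adjusted p = 0.0999), and Sting1, an adaptor of cytosolic DNA sensing, of -0.13 (limma adjusted p = 0.184). Ifnb1, Ifng, Ifna1 and Irf1 were chosen after their values were seen.

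Other chemokines, chemokine receptors and NF-kappaB targets gave few calls. Of all genes 6.07% passed at 5 mg and 10.5% at 10 mg, so for lists this short the counts are near the background. Of 16 other chemokines tested in liver, 1 fell at 10 mg and none passed at 5 mg (1 with an unadjusted p under 0.05). It was Ccl9, a macrophage chemokine, which fell by 0.32 (SE 0.10, limma adjusted p = 0.0463), a call lost in 6 of 10 fits without 1 litter (up to 0.112) and without control livers 2, 3 and 5 (0.249). Of 7 chemokine receptors none passed at 5 mg (2 with an unadjusted p under 0.05), and Ackr3, a scavenger of CXCL12, fell by 0.46 at 10 mg (SE 0.11, limma adjusted p = 0.0107, and 0.102 without those livers). Of 20 NF-kappaB and TNF targets, 1 rose at 5 mg and 2 at 10 mg, with a median over the list of 0.03 and 0.08. Tnfrsf12a, the receptor of the cytokine TWEAK, rose by 0.57 and 0.74 (SE 0.10 each, limma adjusted p = 0.00267 and 0.000154, with 0.0846 at 5 mg without those livers). The stress-induced factor Atf3 had a change of 0.33 at 5 mg (limma adjusted p = 0.0614), and it rose at 10 mg by 0.51 (SE 0.10, limma adjusted p = 0.00288).

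Of 15 tested acute phase genes, 1 rose at 5 mg, and 1 rose and 1 fell at 10 mg, where 6.07% and 10.5% of all genes passed. Socs3, a feedback inhibitor of cytokine signalling, rose by 0.67 and 0.66 (SE 0.16 each, limma adjusted p = 0.0205 and 0.0166). Without control livers 2, 3 and 5 neither call of Socs3 was kept (limma adjusted p = 0.279 and 0.239), and at 5 mg 3 of 10 fits without 1 litter lost it (up to 0.0583). Lcn2, an iron-trapping protein, fell by 0.31 at 10 mg (SE 0.09, limma adjusted p = 0.0406), a call lost in 7 of 10 fits without 1 litter (up to 0.110) and without those control livers (0.188). In lung no gene of any list named above passed at either dose. Of the 67 genes of the 3 interferon-induced lists tested there, 5 had an unadjusted p under 0.05 at each dose, against 4.62% and 6.91% of all genes.

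No marker of the cells that make or follow CXCL10 was called higher in liver, where 4.26% of all genes were at 5 mg and 5.3% at 10 mg. With so few markers, this count is near the background. Of 14 macrophage and Kupffer cell markers, none passed at 5 mg (3 with an unadjusted p under 0.05). At 10 mg 2 of the 14 fell, against 5.22% of all genes. Of the 14, 13 had a change below 0 at 10 mg, while 43.5% of all genes had one above 0. Cd163, a haemoglobin scavenger receptor, fell by 0.95 (SE 0.21, limma adjusted p = 0.00651), and Adgre1, the F4/80 antigen, by 0.37 (SE 0.10, limma adjusted p = 0.0303), a call lost in 6 of 10 fits without 1 litter (up to 0.0775) and without control livers 2, 3 and 5 (0.179). In whole-tissue RNA, fewer cells of a type and less RNA per cell cannot be told apart. The list mean ranged from 7.72 to 8.11 at 10 mg and from 7.82 to 8.17 at 5 mg, against 7.85 to 8.32 at 0 mg, and its part in the Cxcl10 and Ifit1 levels was not tested. None of 6 T and NK cell markers passed, with a list mean of 5.41 to 5.55 at 10 mg and 5.37 to 5.68 at 5 mg, against 5.50 to 5.63 at 0 mg, and none of 6 plasmacytoid dendritic and B cell markers did. With an unadjusted p under 0.05 there were 0 and 1 of the T and NK cell markers and 1 and 2 of the plasmacytoid dendritic and B cell markers at 5 and 10 mg.

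Some other cell markers fell, where 1.81% of all genes were called lower at 5 mg and 5.22% at 10 mg. Of 10 granulocyte and monocyte markers none passed at 5 mg (3 with an unadjusted p under 0.05), and the neutrophil granule genes Elane, Prtn3 and Ltf fell at 10 mg by 0.37, 0.41 and 0.38 (limma adjusted p = 0.0274, 0.0296 and 0.0328), each lost in 5 or more of 10 fits without 1 litter (up to 0.0902). Without control livers 2, 3 and 5 Prtn3 and Ltf did not pass (limma adjusted p = 0.133 and 0.130). Of 8 endothelial markers, Stab2, a scavenger receptor of sinusoids, fell by 0.33 and 0.48 (SE 0.09 each, limma adjusted p = 0.0412 and 0.00301). Its call at 5 mg was lost in 6 of 10 fits without 1 litter (up to 0.104) and without those livers (0.196). Of 5 erythroid markers, Hemgn and Klf1 fell at 5 mg, by 0.41 each (limma adjusted p = 0.00230 and 0.0249), and none passed at 10 mg (2 with an unadjusted p under 0.05). Of 10 hepatocyte markers, Ahsg and Apoa1, which encode secreted plasma proteins, fell at 10 mg by 0.18 and 0.17 (limma adjusted p = 0.0177 and 0.0252), and none passed at 5 mg (1 with an unadjusted p under 0.05). Each of these 4 calls was lost in 1 to 7 of 12 other settings (limma adjusted p up to 0.843), and those of Klf1 and Apoa1 also in 4 of 10 fits without 1 litter (up to 0.0716).

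Likeness to Cxcl10 was described over the 15 livers. Over the 15 liver arrays the Pearson correlation of its level was 0.83 with Ifit1, 0.68 with Irf7, 0.60 with Ifit3 and 0.60 with the mean of the type I list. These arrays share their dose groups, and for each litter's deviation from its dose mean the values were 0.73, 0.68, 0.59 and 0.58. On the same deviations Ifit1 had a correlation of 0.91 with Irf7 and 0.94 with Ifit3. Of 13268 other genes ranked by likeness to Cxcl10 over the 15 livers, the 8 most alike were Hyal2, Rab9, Gpat4, Ces1g, Sdc1, Ephx1, Aldh3a2 and Plin2, with r from 0.953 to 0.959. Ces1g encodes a carboxylesterase, Ephx1 an epoxide hydrolase, Aldh3a2 a fatty aldehyde dehydrogenase and Plin2 a lipid droplet coat protein. In that ranking Lgals3bp was at 56, Tor3a at 239, Ifit1 at 275, Irf7 at 722 and Ifit3 at 1016. Cxcl10 was picked for its liver levels by dose, so the ranking by level follows the dose groups and supports nothing further. Ranked on deviations from the dose mean, the order differed, with Ifit1 at 79, Irf7 at 169, Lgals3bp at 410, Ifit3 at 479 and Tor3a at 6722. By that measure, added after the values were seen and leaving out symbols of clones and predicted genes, the 8 most alike were Coq2, Jak1, AU022252, Rab9, Sema4d, Tpm4, Hcls1 and Eif6, with r from 0.825 to 0.886, and Rab9 was the only gene of both groups of 8.

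Interferon-stimulated genes were among those most like Irf7. In liver the 8 most alike were Oas2, Ifit1, Plec, AW112010, Irf9, Oasl2, Rin2 and Rap1gap, with r from 0.863 to 0.912, and 4 of them, Oas2, Ifit1, Irf9 and Oasl2, are members or in the type I list. In lung they were Ifitm3, Trim30a, Parp14, Irf9, Oasl2, Myt1l, Scgb1a1 and Lgals3bp, with r from 0.830 to 0.886, each over 15 arrays that share their dose groups, and 6 of these 8, other than Myt1l and Scgb1a1, are in the type I list.

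**Figure D4:**
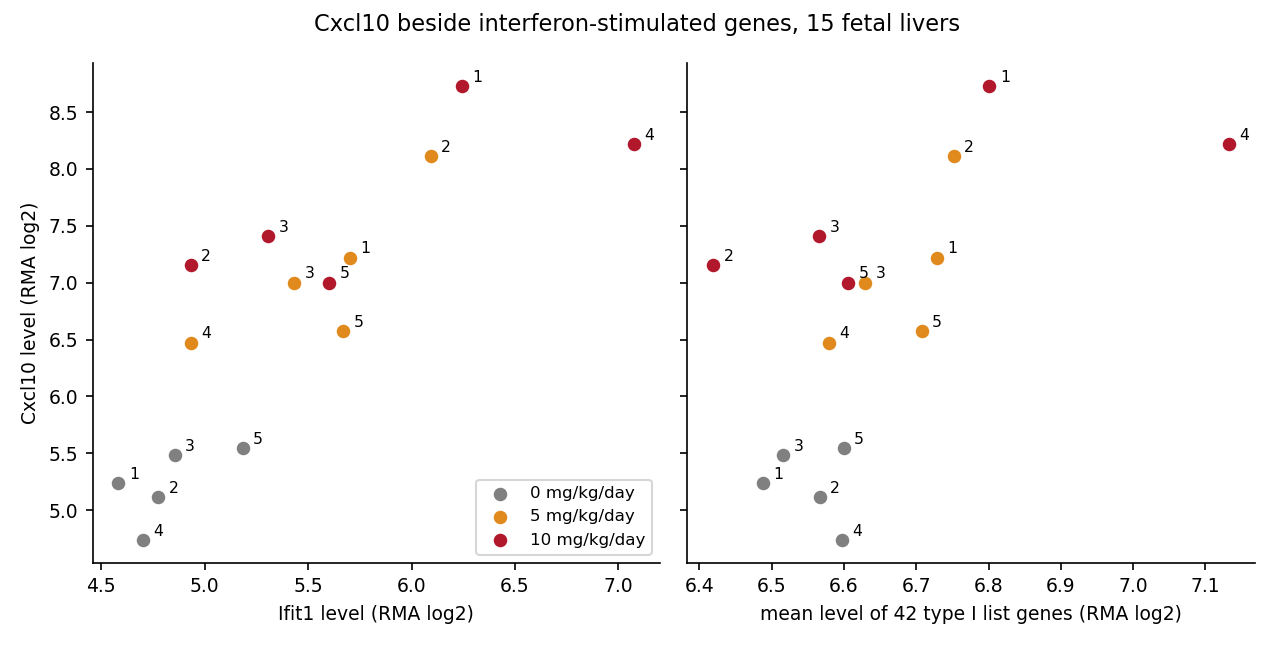
Cxcl10 level (RMA log2) against the Ifit1 level (left) and the mean level of the 42 tested type I list genes (right) in 15 fetal livers, with colours for the dose and numbers for the litter. Litter 2 at 10 mg/kg/day has a Cxcl10 level of 7.16 beside the lowest list mean, 6.42, and litter 4 has 8.22 beside the highest, 7.13.

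The list mean showed the same order of litters as Ifit1 at the extremes. At 10 mg it was 6.80, 6.42, 6.57, 7.13 and 6.61 in livers of litters 1 to 5 and 6.74, 6.32, 6.59, 7.00 and 6.48 in lungs. The unexposed litters were closer together, from 6.49 to 6.60 in liver and from 6.46 to 6.56 in lung. At 10 mg litter 4 was the highest litter for 39 of the 42 genes in liver and 32 of the 40 in lung, and litter 2 was the lowest for 27 and 25 of them. At 5 mg litter 5 was the highest for 21 of the 40 genes in lung and litter 4 the lowest for 21, and in liver litter 2 was the highest for 16 of the 42. At 0 mg no litter was the highest for more than 13 genes in either tissue. The macrophage list mean at 10 mg was also highest in litter 4 in liver, at 8.11, and in litters 1 and 4 in lung, at 6.48 each. In liver at 10 mg the endothelial list mean was also highest in litter 4, at 7.31, and lowest in litter 2, at 6.85. The hepatocyte list mean was highest in litter 4, at 12.55. The erythroid list mean in these livers ran the other way, lowest in litter 4, at 10.22, and highest in litter 2, at 10.66. The part of these in the interferon gene levels was not tested.

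**Figure D5:**
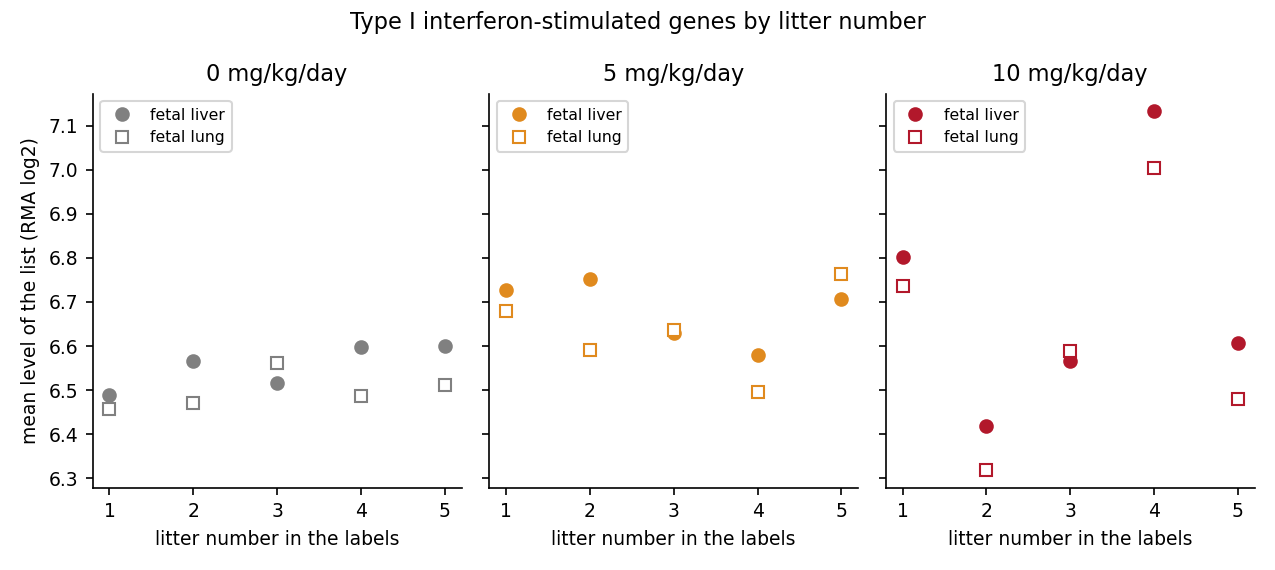
Mean level (RMA log2) of the tested type I interferon-stimulated genes, 42 in liver (filled circles) and 40 in lung (open squares), by the litter number of the labels, with 1 panel per dose in mg/kg/day. At 10 mg/kg/day litter 4 is highest and litter 2 lowest in both tissues, and the unexposed litters lie between 6.46 and 6.60.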

How the data were processed

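The deposited values are log2 probe set levels made by the authors with RMA, which corrects background, normalizes arrays together and summarises probes, per the submitters' processing notes. Its version, and which arrays it normalized jointly, were not given in the sources used here. Of 45101 probe sets, 34945 have 1 symbol in the platform annotation, 932 several and 9160 none. Each tissue was fitted with limma 3.58.1 (R 4.3.3), with 1 mean per dose, over 13269 genes in liver and 12897 in lung. Tissues were compared in 1 fit of 30 arrays over 13856 genes. Two-sided p-values were adjusted by Benjamini-Hochberg over all genes tested, with calls at 0.05, and the scripts were tested on simulated data. Litters are the replicates, and their number limits the precision. Genes named are the 9 genes, up to 4 called genes per list by size or else 2 by p, and the 8 most alike in pattern, with later choices marked in the text. The genes and lists were chosen with earlier results of these data known. Of 285 list entries, 266 matched a gene. Alternatives varied the filter, normalization, weights, spread model, probe sets and litters. Figures used matplotlib 3.10.9.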

Additional observations from a re-analysis of the deposited data

Results flagged for a closer look

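In 4 of 54 groups of 5 litters, 1 litter lay far from the other 4 by Dixon's test, where chance gives about 1 in 20. Cxcl10 in lung at 5 mg/kg/day was 3.32 in litter 1 and 3.13 to 3.17 in the others, all below the measurable level. Ifit1 in the lung of litter 1 at the same dose was 4.72, with the others from 4.10 to 4.18. Ifit3 in lung at that dose was 4.72 in litter 5, with the others from 4.37 to 4.45. Tnf in liver at 10 mg/kg/day was 4.37 in litter 4 and 4.62 to 4.68 in the others, in the liver that was highest in Ifit1.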

How the results depend on the processing

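Cxcl10 stayed higher in exposed livers in every fit, by 1.59 to 2.00 at 5 mg/kg/day and 2.22 to 2.66 at 10 mg/kg/day without 1 litter (doses below in mg). At 10 mg the count of 1 called gene besides Cxcl10, Ifit1, was 0 with no filter, median centring, array weights, a trended and robust spread, the replicate block, the 2 groups alone, both tissues in 1 fit, and without control livers 2, 3 and 5. Without 1 litter it was 0 to 1. At 5 mg it was 1 with the 2 groups alone. The 3 interferon-induced lists had 3 calls at 5 mg, and 5 with quantile normalization or a trended and robust spread, 7 with the 2 groups alone and 3 to 5 without 1 litter. Their 4 calls at 10 mg were 2 with the 2 groups alone or without the 3 control livers, a fit with fewer samples, and 2 to 6 without 1 litter. All genes called in liver were 805 and 1395, and 295 and 540 without those 3 livers. In lung 2 genes were called at 5 mg, and 4 with both tissues in 1 fit. At 10 mg 7 were called in lung, with 4 under no filter, quantile normalization, array weights or the replicate block, 3 with averaged probe sets, 14 with both tissues in 1 fit and 3 to 11 without 1 litter. Where not stated, the cause was not tested.

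Changes of sign occurred in uncalled results. Ifit1 in liver, with a change of 0.27 at 10 against 5 mg, had -0.044 without litter 4 at 10 mg. Without the 3 control livers Tnf in liver was -0.0058 at 5 and Irf1 0.011 at 10 mg. In lung at 10 mg Cxcl1 was 0.053 with averaged probe sets and Irf7 was -0.0012 with array weights. Without 1 litter, Tnf in liver at 5 mg ran from -0.0045 to 0.087, Usp18 in liver at 10 mg from -0.073 to 0.38, Ifit1 in liver at 10 against 5 mg from -0.044 to 0.49, Cxcl1 in lung at 5 mg from -0.053 to 0.045 and Irf7 in lung at 10 mg from -0.12 to 0.14. The liver minus lung difference ran from -0.0019 to 0.18 for Irf7 and from -0.071 to 0.091 for Ifit3 at 5 mg, and from -0.33 to 0.10 for Ifit3 at 10 mg. Same-numbered arrays of different doses had correlations of deviations from -0.14 to 0.13 in liver and from -0.31 to 0.27 in lung, so numbers did not pair doses. Of 15 livers, 13 correlated best with the lung of their number, a hint from the data and not from the design. Probe sets near background, such as Cxcl9 and Ccl2 in both tissues and Cxcl10 in lung, have levels too dim for their changes to be measured well.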
